A study of Bos taurus with 8 samples.

Results

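The enzymes that carry cholesterol to androgen and estrogen were measured in bovine granulosa cells, in 4 cows of the High A4 group and 4 of the Control group. The set was chosen by name and holds 10 genes. CYP11A1, HSD3B1, CYP17A1, CYP19A1, HSD17B1 and SRD5A1 act on the steroid itself. FDX1, FDXR and POR pass electrons to the CYP enzymes among these, and CYB5A aids CYP17A1. Of the 10, 9 had 1 probe set each with a single gene symbol, out of 18010 genes with such a probe set on the array. FDXR had none and is not analysed here. Of the 9 genes measured, 8 were above the noise threshold of 100 intensity units in the mean of at least 1 group, and SRD5A1 was not.

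High A4 granulosa cells came from dominant follicles with a mean androstenedione (A4) of 356 ng/mL in the follicular fluid, and Control granulosa cells, labelled as low in A4, from dominant follicles with a mean of 1.9 ng/mL. All 8 cows were beef cows of 75% Red Angus and 25% MARC III origin. Their cycles were synchronized with gonadotropin releasing hormone, a progesterone device (CIDR) worn for 7 days and prostaglandin at its removal, and the ovaries were taken about 36 h later. Every follicle was estrogen-active, and the cells were mural and cumulus granulosa cells with a stated purity of at least 94%. RNA of each cow went to 1 Affymetrix Bovine Gene 1.0 ST array, and each array stands for a different animal. The groups were formed on A4 itself, a product of the pathway described here, and not by a treatment.

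Steroid synthesis begins in the mitochondrion, where CYP11A1 cuts the side chain of cholesterol to give pregnenolone, with electrons passed from FDXR through FDX1. HSD3B1 turns pregnenolone into progesterone and dehydroepiandrosterone into androstenedione. CYP17A1 makes androgens from progestins, and its lyase step draws on POR and is raised by CYB5A. In the follicle this enzyme is known for its place in theca cells, while granulosa cells take up the androgen and turn it into estrogen with CYP19A1 (aromatase) and HSD17B1. SRD5A1 leads androgen another way, to its reduced forms. In a bulk sample, fewer cells of a type and less RNA per cell cannot be told apart.

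The arrays held 26773 probe sets, of which 9065 to 9403 exceeded 100 on a High A4 array and 9551 to 9687 did so on a Control array. Of all probe sets, 10120 had a mean above 100 in at least 1 group and were compared on the log2 scale with limma. Their median log2 fold change of High A4 over Control was -0.16, and 25.7% had a positive one. Of 16 measured granulosa cell markers 15 were above the threshold, and 0 of them passed in limma (also 0 at an unadjusted p under 0.05). The log2 fold changes of these 15 ran from -0.39 to 0.62, with 8 positive and 7 negative. In 1 of the 15 every High A4 cow was above every Control cow, as in 2.93% of all probe sets tested. The summed intensity of the 16 was 35747 to 39215 in High A4 and 33277 to 37456 in Control. FSHR, the receptor of follicle stimulating hormone, had a log2 fold change of -0.05 (adjusted p = 0.894 from limma), FOXL2, a factor that maintains ovarian identity, 0.00 (adjusted p = 0.995) and AMH, a granulosa cell hormone, -0.07 (adjusted p = 0.891). These small values changed sign in other scalings, FSHR and AMH after quantile normalization and FOXL2 after centring of the arrays on their median.

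CYP17A1 was the only one of the 8 genes above the threshold that passed the test, and it rose about 6.01-fold in High A4 granulosa cells. Its intensity was 1772, 459, 449.7 and 412 in High A4 replicates 1 to 4, against 99.3, 116, 178 and 56.4 in Control replicates 1 to 4. The lowest High A4 cow stood above the highest Control cow, and High A4 replicate 1 stood far above the other High A4 cows. On the log2 scale the fold change was 2.59 (standard error 0.48, 95% interval 1.51 to 3.66, adjusted p = 0.0223 from limma). None of the 8 was called lower. Over all 10120 probe sets, 1.56% were called higher and 0.623% lower, and 2.93% had every High A4 cow above every Control cow. The call was kept without any single High A4 cow (adjusted p 0.0106 to 0.046 from limma) and without Control replicate 3 (adjusted p = 0.0212), and it was lost without Control replicate 1 (log2 fold change 2.57, adjusted p = 0.072), Control replicate 2 (2.64, adjusted p = 0.0632) and Control replicate 4 (2.29, adjusted p = 0.068). It was also lost in a variance analysis of each gene on its own (adjusted p = 0.153) and with the error variance of that analysis raised to that of probe sets of like intensity (adjusted p = 0.468).

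On the log2 scale CYP17A1 was also the most variable of these enzymes within either group. Its log2 SD between cows was 1.01 in the High A4 cows and 0.68 in the Control cows (n = 4 for both), and 98.6% and 98.1% of all probe sets tested had a lower SD in High A4 and in Control. Its coefficient of variation was 86.2% in High A4 and 44.8% in Control, and by that measure HSD3B1, at 51.4%, was more variable in Control. Control replicates 1 and 4 were below the noise threshold and Control replicates 2 and 3 above it. The highest and the lowest of the 8 arrays differed 31.4-fold. Without High A4 replicate 1 the log2 fold change was 2.08 (adjusted p = 0.0106 from limma), and without that cow and Control replicate 4 together it was 1.79 (adjusted p = 0.00486).

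**Figure D1:**
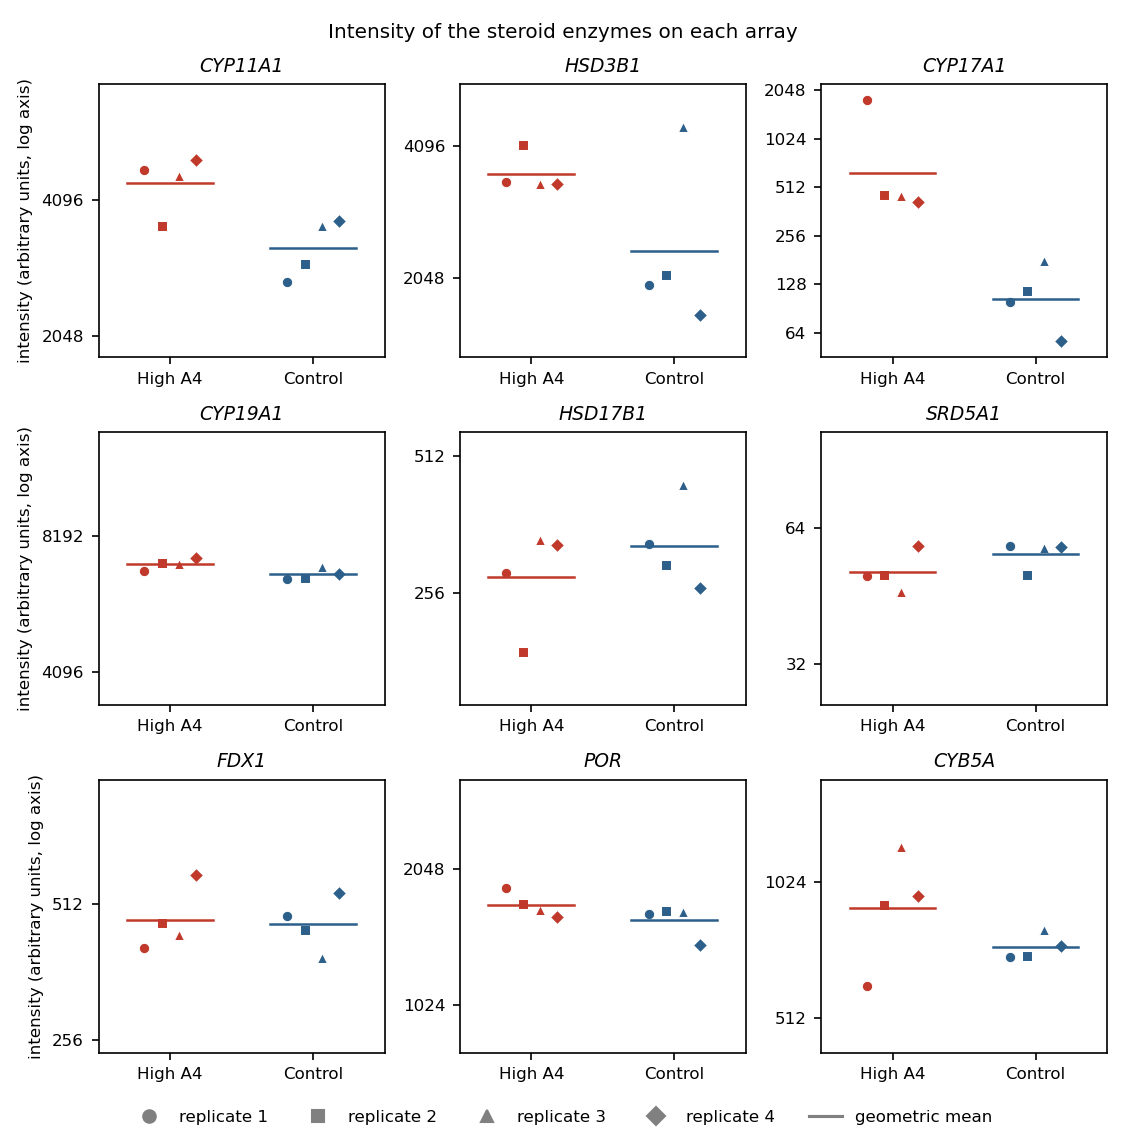
Intensity of the 9 measured enzymes on each of the 8 arrays, in arbitrary units on a log axis, with 1 marker shape per replicate number and a line at the geometric mean of each group. CYP17A1 is the only panel in which all 4 High A4 cows (412 to 1772) lie above all 4 Control cows (56.4 to 178).

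CYP11A1, upstream of CYP17A1, and HSD3B1, which acts both before and after it, had positive fold changes that did not pass. CYP11A1, which opens the pathway, had 4772, 3583, 4619 and 5017 in High A4 replicates 1 to 4, against 2700.1, 2948, 3582 and 3686 in Control replicates 1 to 4. In 3 of the 4 High A4 cows it was above every Control cow, and High A4 replicate 2 fell among the Control cows. The mean was 4498 ± 631 for the High A4 cows and 3229 ± 480.4 for the Control cows (SD, n = 4 for both). This gave a log2 fold change of 0.48 (standard error 0.16, 95% interval 0.12 to 0.83, adjusted p = 0.142 from limma), with an unadjusted p of 0.0132. CYP11A1 and CYP17A1 were the 2 genes of the 8 with an unadjusted p under 0.05, a level that 21.9% of all probe sets tested reached, 4.83% as higher. The adjusted p ran from 0.136 to 0.347 with each cow left out in turn. It was 0.0308 when arrays were weighted by their noise, the 1 alternative in which CYP11A1 passed.

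HSD3B1 differed by about the same factor, but 1 Control cow lay above all others. Its intensity was 3385, 4121, 3345 and 3350.1 in High A4 replicates 1 to 4, against 1965, 2077, 4525 and 1685 in Control replicates 1 to 4. The High A4 cows lay close together, 3 of the Control cows were below all of them, and Control replicate 3 was the highest of the 8. The log2 SD between cows was 0.15 in High A4 and 0.64 in Control, and 97.6% of all probe sets tested had a lower SD in Control. Its log2 fold change was 0.58 (standard error 0.27, 95% interval -0.03 to 1.19, adjusted p = 0.243 from limma). Without Control replicate 3 it was 0.89 (adjusted p = 0.0183 from limma). The same Control cow had the highest CYP17A1 of its group, and its summed leukocyte markers (906) were the highest of the Control cows. Their part in the HSD3B1 value was not tested.

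The enzymes that lead androgen to estrogen or to its reduced forms did not pass in either direction. CYP19A1, the aromatase, had 6849, 7128, 7116 and 7329 in High A4 replicates 1 to 4, against 6580.2, 6627, 7000.2 and 6757 in Control replicates 1 to 4. These 8 values lay within 1.11-fold of each other, and the coefficient of variation was 2.77% in High A4 and 2.79% in Control. Only 0.563% of all probe sets tested had a lower log2 SD in High A4 and 1.38% in Control, so CYP19A1 was among the steadiest signals on these arrays. In 3 of the 4 High A4 cows it was above every Control cow, by a small margin. The estimate was a log2 fold change of 0.08 with a standard error of 0.11 (adjusted p = 0.689 from limma). Its 95% interval ran from -0.17 to 0.32, which as a fold of High A4 over Control is 0.891 to 1.25. Across the other processing choices the log2 fold change lay between 0.00 and 0.24.

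HSD17B1, which reduces estrone to the stronger estradiol, was the only gene of the 8 with a negative fold change. It had 283, 189, 334 and 326 in High A4 replicates 1 to 4, against 328, 295, 442 and 261 in Control replicates 1 to 4. The groups overlapped, with the lowest of the 8 values in High A4 replicate 2 and the highest in Control replicate 3. For HSD17B1 the log2 fold change was -0.23 (standard error 0.22, 95% interval -0.72 to 0.26, adjusted p = 0.534 from limma). That is -0.07 relative to the median of all probe sets tested.

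SRD5A1, a steroid 5-alpha-reductase, was below the noise threshold on every array. Its intensity was 50.1, 50.2, 46.2 and 58.1 in High A4 replicates 1 to 4, against 58.4, 50.2, 57.7 and 58.0 in Control replicates 1 to 4. In the limma fit without the noise filter its log2 fold change was -0.14 (standard error 0.13, adjusted p = 0.571), where 10.1% of the 26773 probe sets were called, 8.47% higher and 1.64% lower. Its 95% interval ran from -0.43 to 0.16.

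The electron donors and CYB5A were also not called. POR, the flavoprotein that serves CYP17A1 and CYP19A1 in the endoplasmic reticulum, had 1859.8, 1710.4, 1660.5 and 1602 in High A4 replicates 1 to 4, against 1631, 1654, 1644 and 1392 in Control replicates 1 to 4. The highest cow was High A4 replicate 1 and the lowest Control replicate 4, and 3 of the 4 High A4 cows were above every Control cow, again by small margins. Its log2 fold change was 0.11 (standard error 0.12, 95% interval -0.16 to 0.38, adjusted p = 0.587 from limma).

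CYB5A, the cytochrome b5 that raises the lyase step of CYP17A1, had 603, 908, 1222 and 954 in High A4 replicates 1 to 4, against 697, 701, 802 and 738 in Control replicates 1 to 4. In 3 of the 4 High A4 cows it was above every Control cow, while High A4 replicate 1, which had the highest CYP17A1, had the lowest CYB5A of all 8. The log2 SD between cows was 0.42 in High A4 and 0.09 in Control. For CYB5A the log2 fold change was 0.29 (standard error 0.20, 95% interval -0.16 to 0.73, adjusted p = 0.401 from limma). Without High A4 replicate 1 it was 0.47 (adjusted p = 0.135), and with arrays weighted by their noise 0.51 (adjusted p = 0.0444).

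FDX1, the ferredoxin that hands electrons to CYP11A1, had 409, 465, 438 and 594 in High A4 replicates 1 to 4, against 481, 448, 389 and 542 in Control replicates 1 to 4. The cows of both groups were mixed throughout this range. Its log2 fold change was 0.03 (standard error 0.16, 95% interval -0.33 to 0.38, adjusted p = 0.923 from limma), and its sign turned to -0.04 after median centring of the arrays.

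**Figure D2:**
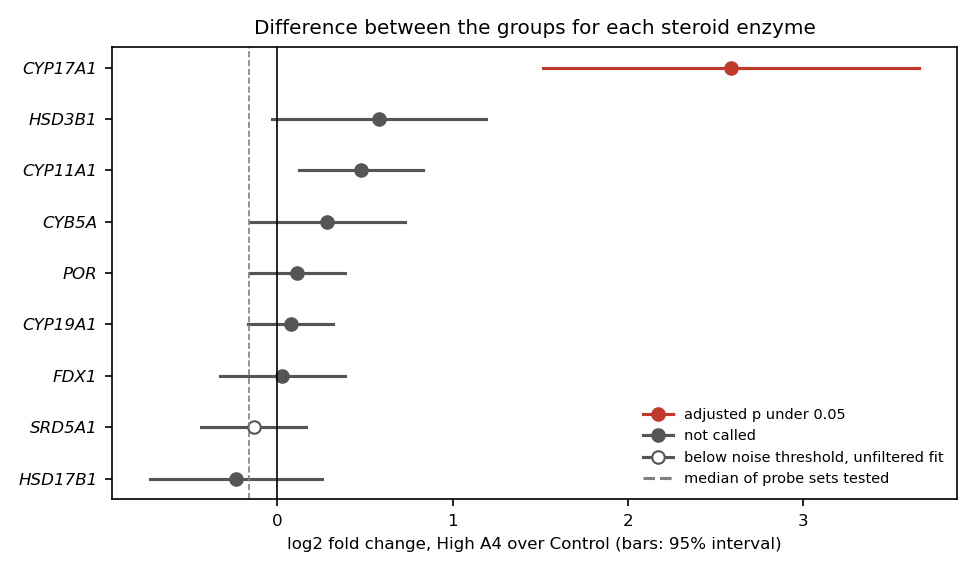
Log2 fold change of High A4 over Control for the 9 measured enzymes, with the 95% interval from limma, and a dashed line at the median of all probe sets tested (-0.16). CYP17A1 is the only enzyme past the threshold, and the intervals of HSD3B1, CYB5A, POR, CYP19A1, FDX1, SRD5A1 and HSD17B1 include 0.

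Of the 8 genes above the threshold, 7 had a positive log2 fold change and 1 a negative one, with a median of 0.20, where all probe sets tested had 25.7% positive and a median of -0.16. Among the 1014 probe sets with a mean intensity above 1000, where CYP11A1, HSD3B1, CYP19A1 and POR lie, 34.7% were positive and the median was -0.09. The study's own criterion asked for a fold change above 1.5 and a p under 0.05 from its analysis of variance. The paper does not say whether that p was adjusted. Here the unadjusted p of limma was used in its place. Of the 8 genes CYP17A1 met the criterion in this form, where 9.43% of all probe sets tested did, 3.20% as higher and 6.23% as lower. The genes were chosen by name with results of these arrays known, so no test was made of the set.

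The level of CYP17A1 was also set against that of each other enzyme on the same array, as a ratio. The log2 ratio of CYP17A1 to CYP19A1 was -3.51 ± 1.04 in the High A4 cows and -6.02 ± 0.67 in the Control cows (SD, n = 4 for both), a difference of 2.51, or 5.70-fold. To HSD3B1 the difference was smallest, at 2.004 (4.01-fold), and to HSD17B1 it was largest, at 2.82 (7.06-fold). To CYP11A1 it was 2.11, to CYB5A 2.30, to POR 2.47 and to FDX1 2.56. The difference of 2.72 to SRD5A1 is against a signal below the noise threshold on every array. In all 8 pairs the 4 High A4 cows were above the 4 Control cows, and each had an exact permutation p of 0.0286 (two-sided, 70 splits of the 8 arrays), which is the smallest p this design can give, and 0.0286 after adjustment over the 8 pairs. CYP17A1 is in every pair and separates the groups by more than any other enzyme differs, so the 8 tests are not independent of each other or of its own comparison and add no support to it. Levels of different probe sets cannot be compared, so only the difference of a ratio between the groups has a meaning here. Without 1 cow the ratios of CYP17A1 to FDX1 (without High A4 replicate 1, 1.99), to CYP11A1 (without Control replicate 4, 1.75) and to CYB5A (without Control replicate 4, 2.005) had an adjusted exact permutation p of 0.0571.

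**Figure D3:**
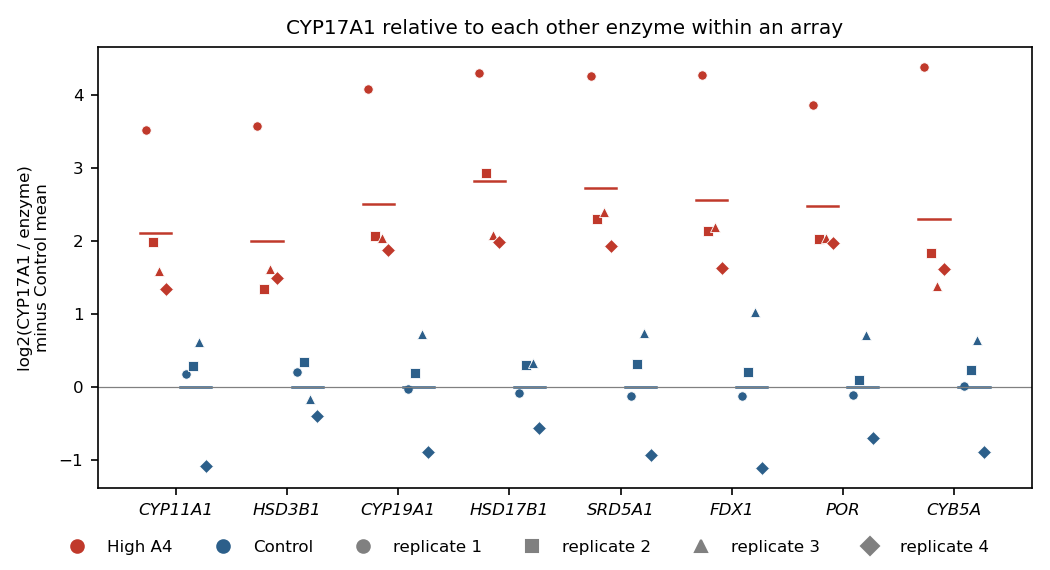
Log2 ratio of CYP17A1 to each other enzyme on each array, minus the Control mean of that ratio, with group means as lines. For every enzyme the 4 High A4 arrays lie above the 4 Control arrays, and High A4 replicate 1 lies above the other High A4 arrays.

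The order of the cows differed from enzyme to enzyme. High A4 replicate 1 was the highest of the 8 cows for CYP17A1 and POR and the lowest for CYB5A. High A4 replicate 4 was the highest for CYP11A1, CYP19A1 and FDX1. Control replicate 3 was the highest for HSD3B1 and HSD17B1 and the lowest for FDX1, and within Control it was also the highest for CYP17A1, CYP19A1 and CYB5A. Control replicate 4 was the lowest of the 8 for CYP17A1, HSD3B1 and POR, yet had the highest CYP11A1 of the Control cows.

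Other genes of the pathway were taken from 6 lists of 102 genes, of which 84 could be read from a probe set of their own and 46 were above the noise threshold. None of the 46 passed in limma over all probe sets, where 2.18% were called in either direction. At an unadjusted p under 0.05, 1 of the 46 was higher (LHCGR) and 5 were lower, where 4.83% of all probe sets tested were higher and 17.1% lower. Their median log2 fold change was -0.11, beside -0.16 over all probe sets tested, with 12 positive and 34 negative, where 25.7% of all were positive.

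Among 15 other 17-beta-hydroxysteroid dehydrogenases and near relatives, 8 were above the threshold, all with negative fold changes (median -0.20), and none passed. HSD17B11, which oxidizes steroids and lies on lipid droplets, came closest. It had 67.1, 98.6, 74.1 and 91.2 in High A4 replicates 1 to 4, against 187, 183, 122 and 124 in Control replicates 1 to 4, and the groups did not overlap. Over all probe sets tested, 10.4% had every High A4 cow below every Control cow. All High A4 values of HSD17B11 were under the noise threshold, so that it was tested only through its Control mean. HSD17B11 differed by -0.88 on the log2 scale with a standard error of 0.20 (adjusted p = 0.0502 from limma), just short of the threshold. With an offset of 50 added to the intensity, HSD17B11 differed by -0.61 (adjusted p = 0.0652 from limma). With 1 cow left out its adjusted p from limma ran from 0.0317 to 0.182. Of these fits it passed only without High A4 replicate 4 (-0.93), where 575 probe sets were called lower, against 63 with all cows. It also passed without the noise filter (adjusted p = 0.0187), with arrays centred on the median (0.0411) and with array weights (0.00786). It did not pass with quantile normalization (0.10), cyclic loess (0.0914) or the replicate number as a block (0.0921). CBR4, a carbonyl reductase, had a log2 fold change of -0.32 (adjusted p = 0.211). Its groups did not overlap either (102 to 133 in High A4, 137 to 157 in Control).

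Of 11 measured genes of cholesterol delivery, 8 were above the threshold and none passed (median -0.07). The nearest to a call were NPC1, which moves cholesterol out of lysosomes (0.15, adjusted p = 0.50), and DBI, a ligand of the mitochondrial protein TSPO (-0.33, adjusted p = 0.597). STAR, the protein that brings cholesterol to CYP11A1, is on a probe set that carries the names of other genes too, and no value is given for it. Of 10 further genes of electron and NADPH supply, 8 were above the threshold and none passed. FDX2, the second ferredoxin of the mitochondrion, had 96.5, 93.6, 88.9 and 124 in High A4 replicates 1 to 4, against 154, 151, 136 and 125 in Control replicates 1 to 4. The groups did not overlap, by a margin of about 1 unit between High A4 replicate 4 and Control replicate 4. Such a separation, with High A4 lower, was seen in 10.4% of all probe sets tested. For FDX2 the log2 fold change was -0.50 with a standard error of 0.15 (adjusted p = 0.11 from limma). With 1 cow left out the adjusted p of FDX2 ran from 0.0282 to 0.303. Of these fits it passed only without High A4 replicate 4 (-0.60, adjusted p = 0.0282), and it also passed with array weights (adjusted p = 0.0161). CYB5R4, a cytochrome b5 reductase, had a log2 fold change of -0.46 (adjusted p = 0.243).

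In the corticosteroid and progestin branches 4 of 10 measured genes were above the threshold, and in conjugation and breakdown 6 of 19, and none passed. AKR1B1, an aldo-keto reductase, had a log2 fold change of -0.51 (adjusted p = 0.174) and SRD5A3, a relative of SRD5A1, of -0.36 (adjusted p = 0.247). PAPSS2 and PAPSS1, which make the sulfate donor of sulfotransferases, had -0.42 (adjusted p = 0.246) and -0.11 (adjusted p = 0.569).

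Of 19 measured receptors and transcription factors known to act on these genes, 12 were above the threshold and none passed (median -0.07). LHCGR, the receptor of luteinizing hormone, which drives steroid synthesis through cyclic AMP, had 4661, 4963, 4777 and 3661 in High A4 replicates 1 to 4, against 3069.9, 3432, 3862 and 2102 in Control replicates 1 to 4. In 3 of the 4 High A4 cows it was above every Control cow. Its log2 fold change was 0.56 (standard error 0.20, 95% interval 0.12 to 0.998, adjusted p = 0.157 from limma). NR5A1, the nuclear receptor SF-1 that switches on most of these enzymes, had a log2 fold change of 0.12 (adjusted p = 0.619), and ESR2, the estrogen receptor beta, of -0.39 (adjusted p = 0.322).

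Theca cells are the known source of CYP17A1 in the follicle, and their markers were measured beside it. INSL3, a peptide hormone of theca cells, had 2203, 1396, 763 and 1210.1 in High A4 replicates 1 to 4, against 933, 962, 494 and 282 in Control replicates 1 to 4. In 3 of the 4 High A4 cows it was above every Control cow. Its log2 fold change was 1.13 (standard error 0.42, 95% interval 0.19 to 2.06, adjusted p = 0.172 from limma), which did not pass, and it was 0.39 with array weights (adjusted p = 0.469) and 0.51 without High A4 replicate 1 and Control replicate 4 together (adjusted p = 0.388). High A4 replicate 1 had the highest INSL3 and the highest CYP17A1 of the 8 cows, and Control replicate 4 the lowest of both. Between these extremes the order differed. Control replicate 3, with the highest CYP17A1 of the Control cows (178), had a lower INSL3 (494) than every cow but Control replicate 4. High A4 replicate 3, with a CYP17A1 of 449.7, had a lower INSL3 (763) than Control replicates 1 and 2.

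Of the 12 measured theca interna markers other than the enzymes, 6 were above the threshold. Of these 6, 4 had a positive and 2 a negative log2 fold change (-0.37 to 1.87, median 0.34), where 25.7% of all probe sets tested were positive. Only 1 of the 6 was called higher, where 1.56% of all probe sets tested were. ALDH1A1, which makes retinoic acid, had 187, 205, 175 and 189 in High A4 replicates 1 to 4, against 62.6, 57.5, 59.1 and 33.4 in Control replicates 1 to 4. The groups did not overlap, and its Control values were all under the noise threshold, so that it was tested only through its High A4 mean. It rose by 1.87 on the log2 scale (standard error 0.20, adjusted p = 0.000384 from limma). The summed intensity of the 12 was 6017 to 8316 in High A4 and 3545 to 5594 in Control. LHCGR and NR5A1 are in this list and are also known in granulosa cells of large follicles. Without them the sum was 1565 to 3181 in High A4 and 999 to 1775 in Control, so that the groups overlapped. Such sums are weighted to their brightest probe sets. INSL3 is in this one, with 763 to 2203 in High A4 and 282 to 962 in Control. In High A4 replicate 1 it was 2203 of the 3181. The part of theca cells in the CYP17A1 value was not tested.

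Markers of theca externa and stroma were above the threshold for 5 of 18 genes, of which 2 rose, where 1.56% of all probe sets tested were called higher and 2.93% were higher without overlap. DCN (decorin) had 398, 321, 602 and 227 in High A4 replicates 1 to 4, against 148, 162, 181 and 94.4 in Control replicates 1 to 4, with no overlap. It rose by 1.35 on the log2 scale (standard error 0.30, adjusted p = 0.0472 from limma). The call was kept without High A4 replicate 4 (1.58, adjusted p = 0.0101) and was lost without any 1 of the other 7 cows (1.11 to 1.47, adjusted p 0.065 to 0.129). OGN (osteoglycin), a proteoglycan, had 88.7, 99.8, 129.8 and 110.04 in High A4 replicates 1 to 4, against 30.4, 48.2, 31.7 and 39.7 in Control replicates 1 to 4. All its Control values were under the noise threshold, and it was tested only through its High A4 mean. It was called higher (adjusted p = 0.000978 from limma), by 1.53 on the log2 scale and by 0.84 with the offset of 50, it was not tested without High A4 replicate 3 or where the mean of the 8 arrays had to exceed 100, and it did not pass with raised error variance (adjusted p = 0.575). The summed intensity of the 18 was 2140.4 to 3676 in High A4 and 1069.5 to 2933 in Control. The part of stromal cells in the CYP17A1 value was not tested.

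None of 13 leukocyte markers was above the threshold in a group mean. Their summed intensity was 901 in High A4 replicate 1 and 434 to 593 in the other High A4 cows, against 906 in Control replicate 3 and 409 to 512 in the other Control cows. These are the cows with the highest CYP17A1 of each group, and the part of leukocytes in that value was not tested. Sums over 12 endothelial markers were 478 to 558 in High A4 and 397 to 468 in Control. Of these 12, 11 were under the threshold, and the 1 above it was not called. Without the noise filter 1 of the 12 was called higher, where 8.47% of all 26773 probe sets were. The part of endothelial cells was not tested. Sums over 9 smooth muscle and pericyte markers were 609 to 927 in High A4 and 729 to 825 in Control. Over 11 luteal markers the sums were 2399 to 2906 in High A4 and 2155 to 3549.9 in Control, and none passed. All 5 red blood cell markers were under the threshold, with sums of 140.5 to 206 in High A4 and 125 to 150.2 in Control.

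**Figure D4:**
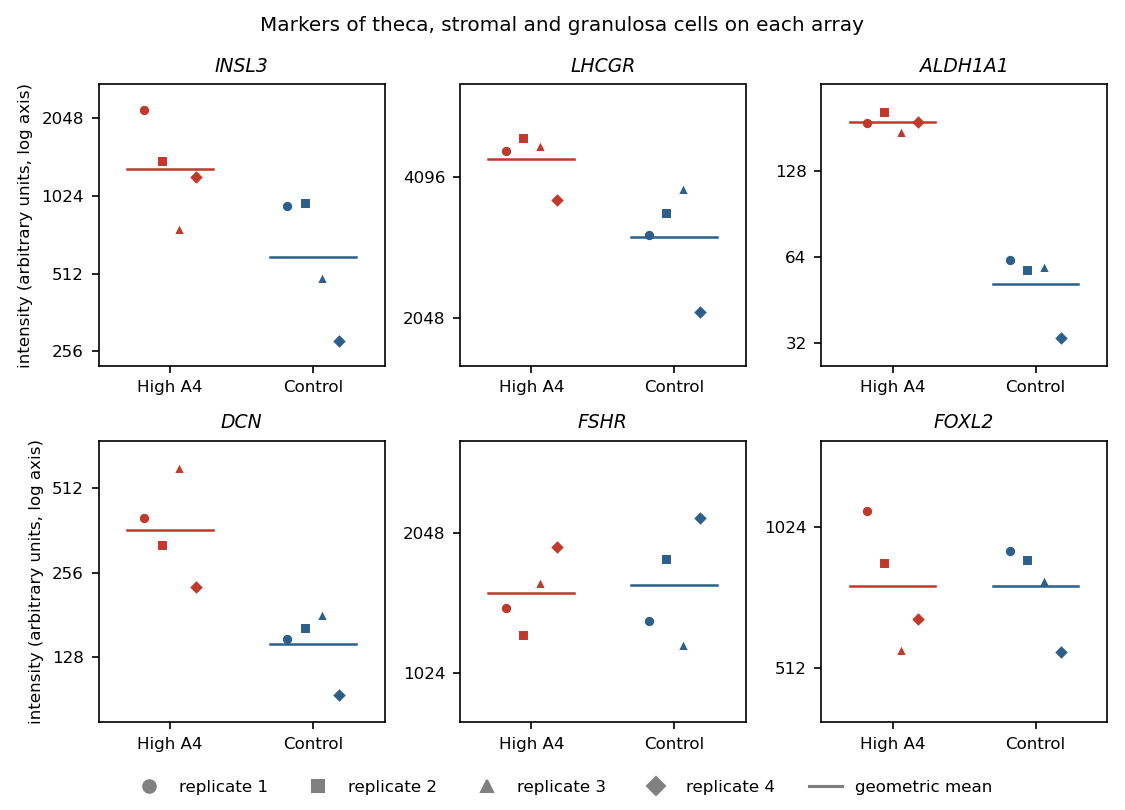
Intensity of INSL3, LHCGR and ALDH1A1 (theca), DCN (stroma) and FSHR and FOXL2 (granulosa cells) on each array, in arbitrary units on a log axis, with a line at the geometric mean of each group. ALDH1A1 and DCN separate the groups, INSL3 and LHCGR overlap by 1 High A4 cow, and FSHR and FOXL2 are mixed.

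The genes whose profile over the 8 arrays lay nearest to that of CYP17A1 were found among 7654 single-symbol genes above the threshold, by the root mean square distance between log2 profiles centred on their own mean. They were LOC784741 (distance 0.66), LOC618014 (0.69), LOC786530 (0.72), LOC531650 (0.75) and ALDH1A1 (0.76), where the median distance of all genes was 1.60. The 4 with LOC names lay between 82.8 and 215 in High A4 and had no array above 46.1 in Control, and their log2 fold changes were 1.81 to 2.80. They were tested only through their High A4 means. Nearest to CYP11A1 were ZNF462, LOC783300 and MYCBP2 (0.11 to 0.16, against a median of 0.43), and nearest to HSD3B1 were CLMN, ROBO1 and DPYD (0.17 to 0.20, against a median of 0.59). None of these last 6 genes passed in limma (adjusted p 0.135 to 0.432).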

How the data were processed

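The values used here are those the authors deposited: normalized intensity in arbitrary units, not log-transformed, for 26773 probe sets on 8 arrays. Robust Multi-Array Averaging is the method given in the paper, while in the submitters' processing notes GCRMA and Affymetrix Expression Console appear, both without a version, so which method made the values is not settled. No scan or batch information was used. The number of arrays limits the precision.

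In the platform's annotation 18457 probe sets carried 1 gene symbol, 688 several and 7628 none. By Entrez ID the 9 measured enzymes keep their symbols in RefSeq's annotation of ARS-UCD2.0, as do 180 of 183 listed genes. A gene with more than 1 probe set was read from the brightest, and every enzyme had only 1. Groups came from the sample titles.

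The log2 intensities of the 10120 probe sets that passed the noise threshold (100) were compared with limma 3.58.1 in R 4.3.3, adjusted by the Benjamini-Hochberg method over all of them, with a threshold of 0.05. Every adjusted p is from limma unless an exact permutation test, a variance analysis or raised error variance is named. The fit was tested on simulated data. Within-array ratios were compared by two-sided exact permutation, over 8 pairs because FDXR could not be paired.

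The enzymes, the lists and the tests were chosen with earlier results of these data known. Named are the enzymes, up to 4 genes called in a list or, for a pathway list with no call, the 2 of lowest p, then INSL3, LHCGR, STAR (without a value, its probe set being shared), DCN, FSHR, FOXL2, AMH and NR5A1, and the nearest profiles (5 for CYP17A1 and 3 each for CYP11A1 and HSD3B1). The alternatives varied the filter (none, or the mean of the 8 arrays above 100), the scaling (median centring, quantiles, cyclic loess), the offset (50) and the test (an intensity trend, array weights, a variance analysis per gene, also with the error variance brought up to the level of the 500 probe sets nearest in intensity), added the replicate number as a block, or left out 1 cow at a time. Centring on the median of the probe sets tested, and leaving out High A4 replicate 1 together with Control replicate 4, were chosen after seeing the data.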

Additional observations from a re-analysis of the deposited data

Results flagged for a closer look

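In 5 of the 58 groups of 4 cows examined (29 named genes in each group), 1 cow stood apart, with a gap to its nearest neighbour, as a share of the group's range on the log2 scale, above Dixon's 95% critical value for 4 samples. Chance gives about 1 in 20, or 2.9 of 58. CYP17A1 in High A4 replicate 1 was 1772, against 412 to 459 in the other High A4 cows (gap 0.926 of the range). HSD3B1 in High A4 replicate 2 was 4121, against 3345 to 3385 in the others (0.943). POR in Control replicate 4 was 1392, against 1631 to 1654 in the others (0.918). SRD5A1 in Control replicate 2 was 50.2, against 57.7 to 58.4 in the others (0.918), all below the noise threshold. ALDH1A1 in Control replicate 4 was 33.4, against 57.5 to 62.6 in the others (0.866), also all below the noise threshold.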

How the results depend on the processing

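The log2 fold change of CYP17A1 was positive in every alternative run, from 2.10 to 2.76 over the processing choices, from 2.08 to 2.85 with 1 cow left out (adjusted p 0.0106 to 0.072) and 1.79 without High A4 replicate 1 and Control replicate 4 together. It stayed at 2.59 but did not pass in the variance analysis of each gene on its own (adjusted p = 0.153, and 0.468 with raised error variance), which called 0 enzymes higher in either form. With 1 cow left out, 0 to 2 enzymes passed as higher, and with array weights 3 passed, CYP17A1, CYP11A1 (0.56) and CYB5A (0.51). HSD3B1 passed without Control replicate 3, with a range of 0.42 to 0.89 over the left-out cows. FDX1 turned to -0.044 with arrays centred on the median and ranged from -0.081 to 0.11 over the left-out cows. No enzyme passed as lower in any alternative. The cause of these changes was not tested.

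The median over the probe sets tested moved from -0.16 to -0.24 with arrays centred on the median of all probe sets, to -0.03 with quantile normalization, to -0.01 with cyclic loess and to -0.00 with arrays centred on the median of the probe sets tested. Over all probe sets, 158 rose and 63 fell, or 145 and 72, 168 and 19, 182 and 18, and 183 and 19 under these scalings. The counts were 2267 and 440 of 26773 without the noise filter, 68 and 17 where the mean of the 8 arrays had to exceed 100, 328 and 939 with array weights, 96 and 24 in the variance analysis, 22 and 0 with raised error variance, and 114 to 302 and 9 to 575 with 1 cow left out.

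Pathway genes called higher became 5 and those called lower 1, of 84 tested, without the noise filter. There 8.47% of all probe sets were called higher and 1.64% lower. Those called lower became 1 with arrays centred on the median and 3 with array weights, with 0 to 2 over the left-out cows. Marker genes called higher were 3 of 37 tested, and became 11 of 96 without the noise filter. They became 1 of 34 where the mean of the 8 arrays had to exceed 100. With raised error variance they became 0, with 1 to 4 over the left-out cows. Those called lower became 1 without the noise filter, 1 with arrays centred on the median and 2 with array weights, with 0 to 2 over the left-out cows. The signs of some marker and pathway genes turned in some settings. With quantile normalization FSHR was 0.0078, AMH 0.090 and PAPSS1 0.019, with cyclic loess 0.039, 0.10 and 0.047, and with arrays centred on the median of the probe sets tested 0.11, 0.089 and 0.047. FOXL2 was -0.071 with arrays centred on the median and -0.32 with array weights. Without High A4 replicate 1 and Control replicate 4 together FSHR was 0.14, FOXL2 -0.33 and AMH -0.38. Over the left-out cows FSHR ranged from -0.20 to 0.11, FOXL2 from -0.17 to 0.16 and AMH from -0.28 to 0.17.

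Cows of the 2 groups share replicate numbers, and no source used here says that a number marks a shared day or batch. The deviations of same-numbered arrays from their group means correlated at 0.19, -0.22, -0.11 and 0.20, and not every array correlated best with its own number. With the replicate number as a block 135 probe sets rose and 25 fell, and CYP17A1 passed (adjusted p = 0.0365), with no change of call for any enzyme. With sign flips of the 4 pairs in the replicate block, the smallest possible exact p is 0.125, and the differences of the ratio of CYP17A1 to CYP11A1 (2.11), HSD3B1 (2.004), CYP19A1 (2.51), HSD17B1 (2.82), FDX1 (2.56), POR (2.47), CYB5A (2.30) and SRD5A1 (2.72) all had that p. No fit averaged several probe sets of a gene, and each enzyme had only 1. DBI was read from the brighter of its 2. With 1 cow left out the ratio differences ranged over 1.64 to 2.36 for CYP11A1, 1.48 to 2.23 for HSD3B1, 1.99 to 2.75 for CYP19A1, 2.33 to 3.10 for HSD17B1, 1.99 to 2.90 for FDX1, 2.01 to 2.71 for POR, 1.61 to 2.61 for CYB5A and 2.21 to 2.98 for SRD5A1.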

Other observations

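Of the 84 pathway genes, 5 were called higher in the limma fit without the noise filter, all of them under the noise threshold in both groups. In that fit 8.47% of the 26773 probe sets were called higher, a share taken over those above and those under the threshold together. In the fit of the 10120 above it, 1.56% were called higher. The share among probe sets under the threshold alone was not computed. SULT1E1, the estrogen sulfotransferase, had 13.5 to 23.4 in High A4 and 6.47 to 8.16 in Control (log2 fold change 1.36). HSD17B6 had 15.2 to 25.9 in High A4 and 6.38 to 8.15 in Control (1.26). AKR1C3 (0.87), HSD17B13 (0.64) and AKR1D1 (0.59), a steroid 5-beta-reductase, had log2 fold changes in the same direction with no array above 31.7. These genes were singled out after their values were seen.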
